A study of Mus musculus with 28 samples.

Results

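The GFP+ and tdTomato+ stromal cells of estrogen plus progesterone (E+P) treated mice were compared, each GFP+ library against the tdTomato+ library of the same mouse. The members were chosen by their labels, as the 3 GFP+ and 3 tdTomato+ stromal libraries of the 3 E+P-treated mice, which makes 6 of the 28 libraries in the series. All mice were adult C57BL/6 females with PdgfrαCre and the R26mTmG reporter, treated and untreated mice alike. R26mTmG gives every cell membrane tdTomato until Cre cuts it out and turns on membrane GFP for good, so that GFP+ cells had Pdgfra-driven Cre themselves or descend from cells that had it. Because this Cre is not inducible, GFP does not date the expression of Pdgfra and tdTomato+ cells are simply those without a record of Cre. The stromal gate was lineage negative and negative for CD49f and EpCAM, and the untreated stroma used for comparison came from 4 other mice of the same genotype, with 8 libraries. RNA was read as counts per gene, and "mouse 1", "mouse 2" and "mouse 3" below are the E+P-treated mice.

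PDGFRα is a receptor tyrosine kinase for platelet-derived growth factors that is carried by fibroblasts and by progenitors of adipocytes in many tissues. In the mammary gland such cells lie in the fat pad and around the ducts, where they lay down collagen and elastic fibres and send growth factors to the epithelium. Stroma without this receptor can hold pericytes and smooth muscle of vessels, which share PDGFRβ with fibroblasts, and skeletal muscle with its satellite cells where body wall muscle is taken along with the gland.

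Between 14207890 and 22574393 reads were counted on genes in the 6 libraries, and between 21343 and 24277 genes had at least 1 count. CPM below are counts scaled to a common library total after TMM scaling between libraries, and 3 counts, taken as the floor, correspond to 0.133 to 0.22 CPM, which covers counting error only. Over log2 CPM, GFP+ libraries correlated with each other at a Pearson's r of 0.975 to 0.98, tdTomato+ libraries at 0.94 to 0.956, and libraries of different subsets at 0.785 to 0.815. No 2 libraries were identical. Mitochondrial genes took 4.30% to 5.09% of the counts in GFP+ cells and 9.56% to 10.4% in tdTomato+ cells. This share moved with every difference between the subsets given below. In untreated mice it was 4.44% to 4.92% in GFP+ and 6.70% to 10.8% in tdTomato+ cells. Its part in the differences between subsets, and in those between treated and untreated mice, was not tested.

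GFP+ and tdTomato+ stroma differed in 4747 of 17783 genes tested (26.7%), called at an adjusted p under 0.01 by the quasi-likelihood test of edgeR, in which each mouse was a block. Of these, 2418 genes (13.6% of those tested) were higher in GFP+ cells and 2329 (13.1%) were lower. Counts of called genes per list below stand against these shares. A difference of over 8-fold was met by 575 of the higher and 847 of the lower genes, and 3721 called genes differed by over 2-fold. Protein-coding genes made up 2269 of the higher and 2080 of the lower genes. The ranges of the 2 subsets did not overlap in 10165 genes (57.2% of those tested), so that a gap between 3 and 3 libraries was common and is not read as a result. Leaving out mouse 1 or mouse 2 took the count of called genes to 3158 or 3132. Among 212 genes followed one by one, 37 were no longer called without at least 1 of the 3 treated mice. In bulk RNA, more cells of a kind and more RNA per cell cannot be told apart.

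**Figure D1:**
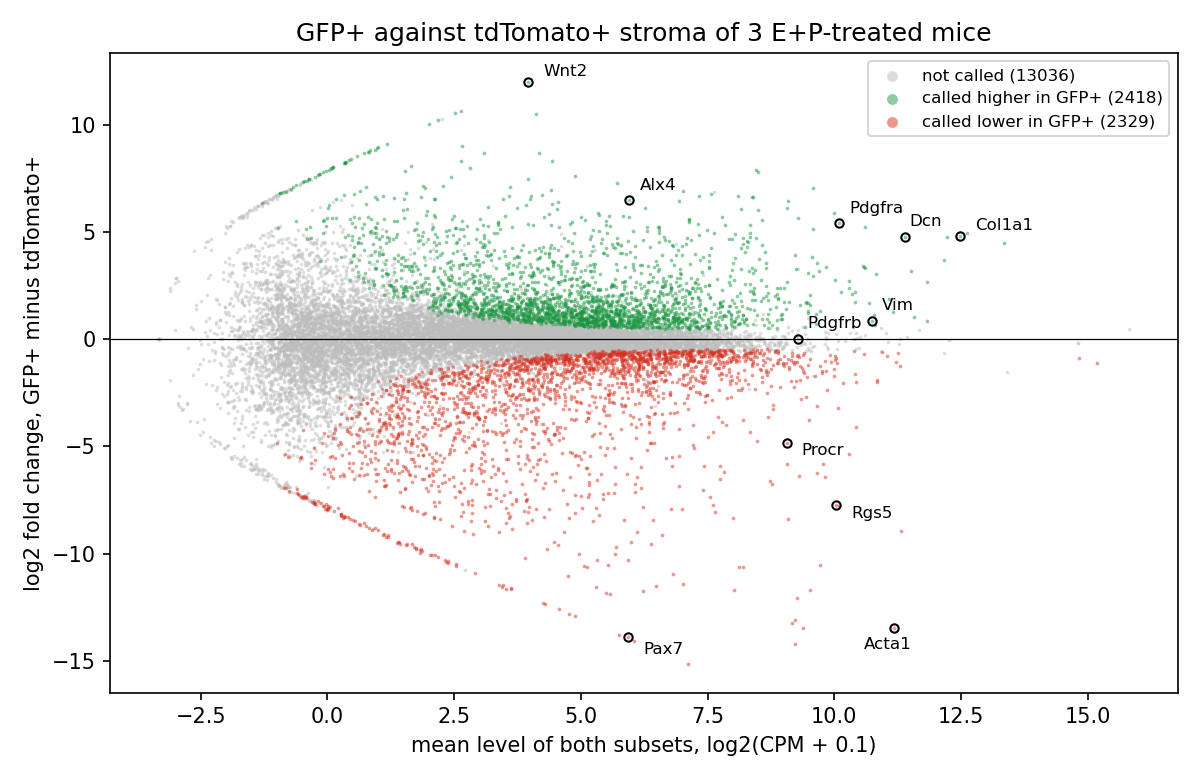
Mean level of each of the 17783 genes tested (x axis, log2 of CPM + 0.1) against its log2 fold change in 3 E+P-treated mice (y axis, GFP+ minus tdTomato+). Green points are the 2418 genes called higher, red points the 2329 called lower and grey points the rest. Pdgfra, Alx4, Dcn and Col1a1 lie in the upper part, Procr, Rgs5, Pax7 and Acta1 in the lower part, and Pdgfrb near 0; for genes with no count in a subset, such as Wnt2 and Pax7, the fitted value plotted is no bound.

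Pdgfra itself (ENSMUSG00000029231.15, chromosome 5, 75152292 to 75198215 on GRCm38) had 2214, 2158 and 2011 CPM in GFP+ cells of mice 1, 2 and 3 and 41.3, 31.9 and 93.7 CPM in tdTomato+ cells. The gene that drives Cre was thus high in all GFP+ and low in all tdTomato+ libraries, with no overlap, and tdTomato+ cells of mouse 3 held the most of the 3. The log2 fold change was 5.42 (SE 0.65, adjusted p = 0.00071), a 42.8-fold difference. Its relative Pdgfrb, the receptor of pericytes as well as fibroblasts, had 663, 611 and 596 CPM in GFP+ and 644, 648 and 560 CPM in tdTomato+ cells. These ranges overlapped, and the log2 fold change of 0.02 (SE 0.15) was not called (adjusted p = 0.95).

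Fibroblast identity genes were higher in GFP+ cells almost throughout, with 18 of 20 called higher, none lower and a median log2 fold change of 4.44, against 0.02 over all genes tested. Summed over the list, GFP+ libraries held 64680, 61210 and 57810 CPM and tdTomato+ libraries 3329, 2717 and 3515 CPM. Ly6a, which encodes the stem cell antigen Sca1, had 172, 159 and 209 CPM in GFP+ and 6.53, 3.97 and 7.44 CPM in tdTomato+ cells (log2 fold change 4.94, SE 0.38, adjusted p = 1.0e-05). Cd34, a sialomucin of progenitors, had 610, 549 and 600 CPM against 32.7, 23.1 and 35.3 CPM (4.29, SE 0.35). The list was led by Lum, Serpinf1 and Pdgfra. Lum, the collagen-binding proteoglycan lumican, had 1228, 1099 and 890 CPM in GFP+ and 11.9, 7.37 and 19.7 CPM in tdTomato+ cells. Serpinf1, which encodes the secreted factor PEDF, had 760, 755 and 711 CPM against 17.4, 10.5 and 20.2 CPM. The 2 genes of the list that were not called are both transcription factors. Prrx1 had 364, 337 and 409 CPM in GFP+ and 422, 338 and 340 CPM in tdTomato+ cells (log2 fold change 0.02, SE 0.14), and Twist2 had a log2 fold change of -0.01 (SE 0.33). Vim, the intermediate filament of mesenchymal cells, was abundant in both subsets, with 2453, 2168 and 2025 CPM against 1311, 1150 and 1199 CPM, and was 1.81-fold higher in GFP+ cells (adjusted p = 0.00025). S100a4, often used as a fibroblast marker, was under 2 CPM in all 6 libraries and was not called.

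**Figure D2:**
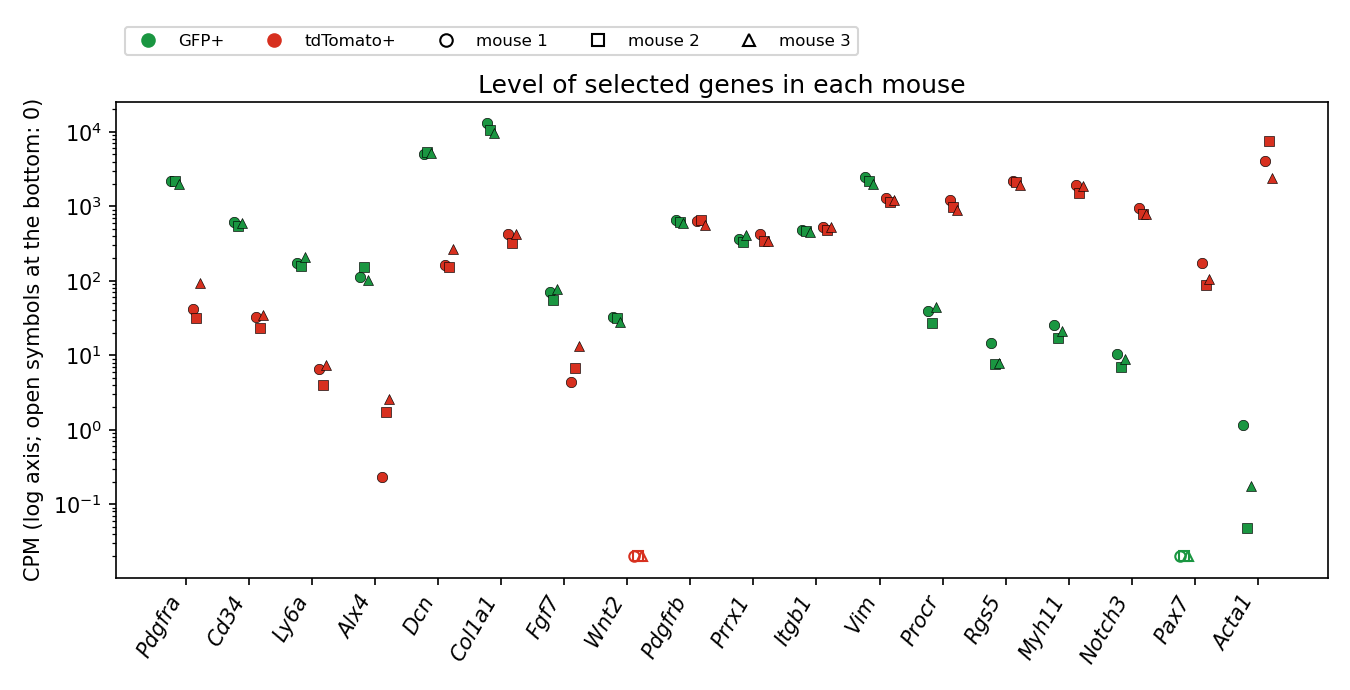
Level in CPM (log axis) of 18 genes in GFP+ (green) and tdTomato+ (red) stroma, with 1 symbol per mouse and open symbols at the bottom for libraries with no count. The subsets do not overlap for Pdgfra to Wnt2 and for Vim to Acta1, and they lie close together for Pdgfrb, Prrx1 and Itgb1.

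Markers of interstitial progenitors, the DPP4+ cells at the root of the adipocyte lineage, were higher in GFP+ cells in 9 of 12 cases, with a median log2 fold change of 4.6. Wnt2, a Wnt ligand (chromosome 6, 17988940 to 18030585), had 33.0, 31.8 and 28.3 CPM in GFP+ cells and no count in any tdTomato+ library. With 3 counts over the group as the floor, it was at least 633-fold higher. Bmp7, a ligand of the BMP pathway, had 17.27, 16.96 and 12.2 CPM against 0.793, 0.089 and 0.167 CPM (log2 fold change 5.63, SE 0.57, adjusted p = 6.9e-06). Dpp4, the peptidase that names these cells, had 145, 147 and 190 CPM in GFP+ and 3.45, 0.313 and 0.278 CPM in tdTomato+ cells, and Pi16 had 282, 202 and 285 CPM against 4.39, 0.223 and 3.11 CPM. The tdTomato+ libraries spread widely for both genes, and with a treated mouse left out their adjusted p values of 0.0063 and 0.0033 became 0.015 to 0.037 and 0.014 to 0.019. Leaving out any 1 of the treated mice left 4 genes of the list called. Cd55 (log2 fold change 0.15), Smpd3 (4.41, adjusted p = 0.033) and Limch1 (0.15) were not called.

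Committed preadipocyte markers did not move as a group, with 6 of 16 called higher, 2 lower and a median log2 fold change of 0.12. Lpl, the lipase that frees fatty acids from lipoproteins, was the highest of them, with 700, 830 and 699 CPM in GFP+ and 61.6, 66.6 and 58.4 CPM in tdTomato+ cells (log2 fold change 3.58, SE 0.18, adjusted p = 1.7e-08). Pparg, the master regulator of adipocyte formation, had 26.9, 26.5 and 28.5 CPM against 36.2, 24.7 and 37.5 CPM and was not called (log2 fold change -0.24, SE 0.17). Dlk1, which encodes Pref-1, was low in both subsets, with at most 1.42 CPM in GFP+ and 4.24 CPM in tdTomato+ cells, and was not called (-1.57, SE 0.89). Both called lower genes handle fatty acids and are also used by capillary endothelium. Cd36, a fatty acid transporter, had 7.69, 9.29 and 15.1 CPM in GFP+ and 156, 155 and 144 CPM in tdTomato+ cells, and Fabp4, a fatty acid carrier, had 12.7, 25.5 and 27.9 CPM against 133, 116 and 71.3 CPM. Neither was called without mouse 1 (adjusted p = 0.034 and 0.014) or without mouse 2 (0.029 and 0.035), and without mouse 3 only Fabp4 was called. Fabp4 also missed the threshold without untreated mouse 1 or 3. Of 14 mature adipocyte markers, 6 were tested, 2 of them called lower in GFP+ cells and none higher, and the others reached at most 0.442 CPM on average in either subset. The called share of 33.3% stood against 26.7% over all genes tested. Pnpla2, a triglyceride lipase, was lower in GFP+ cells (6.88, 9.90 and 9.72 against 60.4, 62.9 and 77.9 CPM), and so was Trarg1, a regulator of glucose transporter traffic that muscle also uses (0.878, 0.616 and 0.444 against 34.4, 34.0 and 20.5 CPM). Cfd, which encodes adipsin, lay in the other direction at under 1 CPM in all 6 libraries (log2 fold change 3.35, SE 1.31) and was not called, nor were Plin1 (-2.61), Plin4 (-0.90) and Lipe (-0.90).

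Mesenchymal transcription factors were split, with 10 of 43 tested called higher in GFP+ cells and 13 lower (median log2 fold change -0.18). The called share was 53.5%, against 26.7% over all genes tested. Alx4, a homeobox factor of mesenchyme (chromosome 2, 93642384 to 93681339), had 112, 153 and 103 CPM in GFP+ and 0.233, 1.74 and 2.61 CPM in tdTomato+ cells (log2 fold change 6.49, SE 0.59, adjusted p = 7.3e-05). It led the factors higher in GFP+ cells, ahead of Prrx2 (4.55, SE 0.57) and Osr1 (4.03, SE 0.39). Foxc2, a forkhead factor of vessel-associated mesenchyme, had 0.293, 1.04 and 0.355 CPM against 10.4, 9.60 and 16.7 CPM (log2 fold change -4.50, SE 0.66). Runx1 (-4.01, SE 0.35) and Foxf1 (-3.54, SE 0.28) were lower in GFP+ cells as well. Prrx1 and Prrx2, which are paralogs, thus stood apart: Prrx1 was level between the subsets and Prrx2 had 14.93, 20.99 and 15.66 CPM against 0.607, 0.402 and 1.33 CPM.

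Genes of the fibrous matrix were among those that set GFP+ cells apart. Per kilobase of exon, the protein-coding genes with the highest mean level in GFP+ cells included Gsn of the fibroblast list (2710 CPM per kb) and the collagen genes Col3a1 (2030) and Col1a1 (1690). In tdTomato+ cells these stood at 206, 90.2 and 59.9 CPM per kb. Of 40 collagen genes tested, 26 were called higher in GFP+ cells and 2 lower, with a median log2 fold change of 1.76. Col1a1, the main chain of fibrillar collagen, had 13030, 10580 and 9617 CPM in GFP+ and 424, 325 and 429 CPM in tdTomato+ cells (log2 fold change 4.82, SE 0.18, adjusted p = 1.7e-09). Col14a1, which sits on fibrils, had 653, 629 and 622 CPM against 16.3, 10.6 and 21.4 CPM. The lower genes were Col19a1, with 0.146, 0 and 0.311 CPM against 5.65, 5.36 and 5.50 CPM, and Col4a6, a basement membrane chain (log2 fold change -2.16), which was not called without mouse 1 (adjusted p = 0.033) or mouse 2 (0.024). Over the alternatives, 1 to 5 collagen genes were lower. Small leucine-rich proteoglycans, which bind collagen fibrils, were called higher in 8 of 14 cases and lower in none (in 1 under several alternatives), with Kera, Lum and Dcn in front. Keratocan (Kera) had 18.37, 11.99 and 3.33 CPM in GFP+ cells and no count in tdTomato+ cells, at least 208-fold higher, and decorin (Dcn) had 4999, 5320 and 5153 CPM against 163, 153 and 267 CPM.

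Elastic fibre genes differed in all 22 cases, 21 of them higher in GFP+ cells, with a median log2 fold change of 3.30. Fbln2, which encodes fibulin-2, had 1366, 1042 and 1259 CPM in GFP+ and 35.9, 10.3 and 34.4 CPM in tdTomato+ cells (log2 fold change 5.68, SE 0.60, adjusted p = 0.00033). The crosslinking enzyme Loxl4 had 20.4, 16.0 and 23.4 CPM against 0.560, 0.179 and 0.666 CPM (5.46, SE 0.44). Efemp1, or fibulin-3, had 693, 808 and 636 CPM against 1.40, 1.16 and 12.9 CPM, with most of the tdTomato+ reads in mouse 3, and its adjusted p of 0.0064 became 0.010 to 0.047 with a treated mouse left out. Ltbp2, which binds latent TGFβ complexes and microfibrils, went the other way, with 7.17, 19.1 and 11.6 CPM in GFP+ and 30.5, 117 and 95.0 CPM in tdTomato+ cells (log2 fold change -2.59, SE 0.39), and was not called in a fit of the 6 libraries without the block (adjusted p = 0.016).

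Basement membrane genes were called higher in 17 of 30 cases and lower in 6, and the subsets used different laminin chains. Lama5, the α5 chain of vessel and epithelial laminins, had 5.42, 2.89 and 6.12 CPM in GFP+ and 428, 370 and 480 CPM in tdTomato+ cells (log2 fold change -6.52, SE 0.31, adjusted p = 6.6e-08). Lama3 was lower in GFP+ cells too (-5.57, SE 0.49). Lamc3, the γ3 chain, had 361, 366 and 202 CPM against 5.65, 6.29 and 9.77 CPM (5.41, SE 0.40). A similar contrast was seen in a related pair, since Frem1 was higher in GFP+ cells (329, 248 and 152 against 2.10, 2.01 and 3.94 CPM) and Frem2 was lower (0.659, 0.142 and 0.666 against 22.0, 24.9 and 20.3 CPM). Both products belong to the same complex at the border of epithelium and mesenchyme. Col15a1, a collagen next to basement membranes, had 1861, 1413 and 1174 CPM in GFP+ and 37.9, 37.1 and 49.4 CPM in tdTomato+ cells (5.15, SE 0.21).

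Matrix proteases and their inhibitors were called higher in 27 of 46 cases and lower in 11 (median log2 fold change 2.08). Serpinb2, which encodes the plasminogen activator inhibitor PAI-2, had 47.8, 28.9 and 26.3 CPM in GFP+ cells and 1 count in all tdTomato+ libraries together, a ratio of 2000 (95% counting interval 359 to 79100). Mmp27 had 6.95, 20.2 and 10.1 CPM against 1 count (ratio 808, interval 145 to 32000), and Adamts19 had 65.7, 55.2 and 55.4 CPM against 0.14, 0 and 0.888 CPM. Adamts9, a protease that cuts versican, was abundant in tdTomato+ cells, with 2596, 2381 and 2346 CPM against 80.94, 50.02 and 54.85 CPM in GFP+ cells (log2 fold change -5.33, SE 0.30, adjusted p = 1.9e-07). Mmp9, the gelatinase, was lower in GFP+ cells as well (0.220, 0.047 and 0.222 against 12.9, 45.1 and 32.2 CPM), although not called without mouse 2 (adjusted p = 0.012) or mouse 3 (0.014).

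Adhesion genes went in both directions. Of 22 integrin genes tested, 5 were called higher in GFP+ cells and 8 lower. The higher genes were Itgb3, Itga11, Itgb5, Itga5 and Itgav, which make up receptors for vitronectin, fibronectin and collagen. Itgb3 had 300.6, 249.4 and 239.9 CPM in GFP+ and 9.52, 9.82 and 10.3 CPM in tdTomato+ cells (log2 fold change 4.73, SE 0.35, adjusted p = 7.7e-06). The lower genes included chains of laminin receptors. Itga7, which muscle uses to hold laminin, had 4.76, 3.70 and 4.35 CPM against 226, 170 and 203 CPM (-5.54, SE 0.22), and Itga6, which encodes CD49f, had 1.10, 0.379 and 0.266 CPM against 37.7, 29.3 and 30.4 CPM (-5.96, SE 0.71). CD49f was used in the gate, so that the protein level at the surface was under selection in both subsets. Itgb1, the chain shared by most of these receptors, had 487, 462 and 447 CPM against 532, 482 and 528 CPM and was not called (-0.14, SE 0.12). Linkers of focal adhesions to actin were called lower in GFP+ cells in 21 of 34 cases, with a median log2 fold change of -0.99. The largest differences were those of muscle actinins. Actn2 had 1 count in GFP+ libraries and 73.1, 125 and 38.0 CPM in tdTomato+ libraries (ratio 4680, interval 840 to 185000), and Actn3, which also stands in the muscle fibre list below, had 3.59, 3.70 and 2.00 CPM against 1007, 1727 and 537 CPM.

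Cadherins, catenins and nectins were called higher in 5 of 22 cases and lower in 10. Cdh11, the cadherin of mesenchymal cells, had 566, 597 and 528 CPM in GFP+ and 21.7, 25.3 and 32.5 CPM in tdTomato+ cells (log2 fold change 4.43, SE 0.24, adjusted p = 6.6e-08), and Nectin1 had 108, 115 and 89.0 CPM against 23.7, 25.4 and 19.1 CPM. The other higher genes, Ctnnb1 (log2 fold change 0.65), Nectin3 (0.73) and Afdn (0.80), were each lost with any 1 treated mouse left out (adjusted p = 0.019 to 0.077, 0.011 to 0.025 and 0.027 to 0.042), and leaving out mouse 1, 2 or 3 left 2, 2 or 3 genes called higher. Ctnnb1, which encodes β-catenin, was also not called when counts were scaled by library size only (adjusted p = 0.013). Of the lower genes, Cdh15 belongs to satellite cells (0, 0.047 and 0.178 against 31.9, 15.0 and 21.5 CPM), Cdh5 to endothelium (0.951, 0.711 and 1.42 against 35.5, 97.9 and 70.9 CPM), and Ctnna3 is an α-catenin known from muscle (0.146, 0.332 and 0.533 against 36.9, 27.2 and 37.5 CPM).

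**Figure D3:**
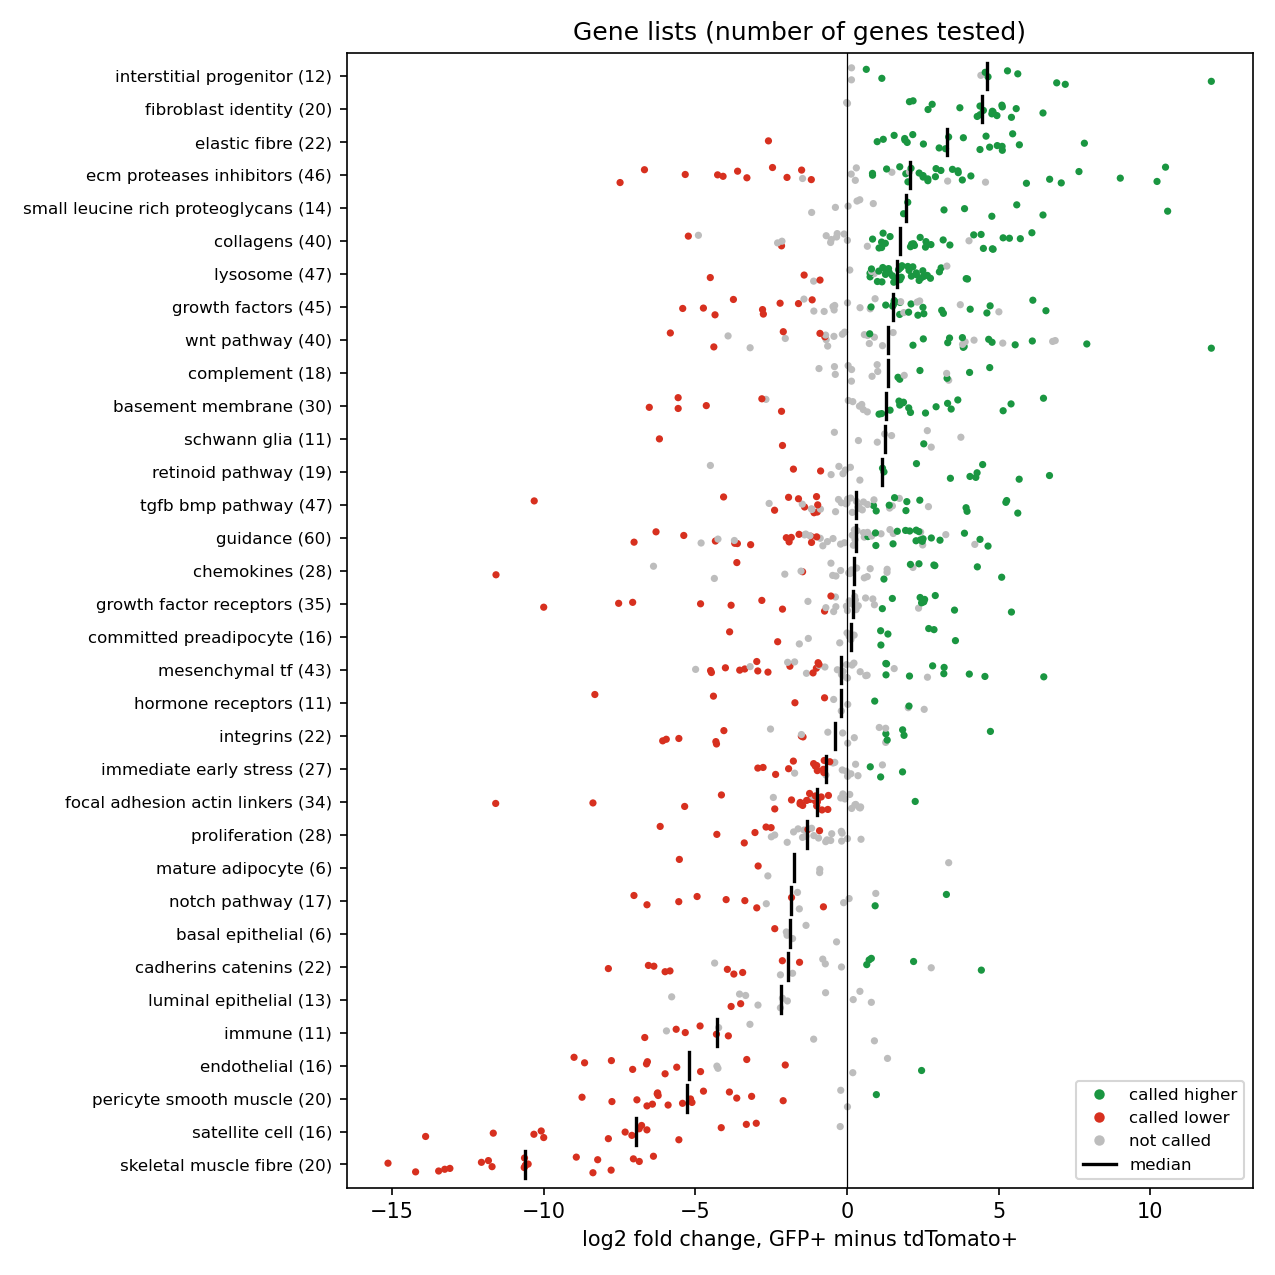
Log2 fold change after E+P (x axis, GFP+ minus tdTomato+) for every tested gene of 34 gene lists (y axis, with the number tested in parentheses), ordered by the list's median, which is drawn as a black bar. Green genes were called higher in GFP+ cells, red genes lower and grey genes neither. Interstitial progenitor, fibroblast identity and elastic fibre genes lie at the top with medians of 4.6, 4.44 and 3.30, and satellite cell and skeletal muscle fibre genes at the bottom with medians of -6.97 and -10.6.

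Among hormone receptors, which take up the signals given to these mice or signals downstream of them, 4 of 11 tested were called lower in GFP+ cells. Esr1, the estrogen receptor α, was level, with 30.2, 27.3 and 27.9 CPM in GFP+ and 30.7, 37.3 and 29.5 CPM in tdTomato+ cells (log2 fold change -0.19, SE 0.17). Pgr, the progesterone receptor, had 38.8, 30.2 and 34.1 CPM against 5.13, 7.63 and 5.05 CPM, a gap between the subsets that missed the threshold (2.55, SE 0.61, adjusted p = 0.013). In a fit of the 6 libraries alone the Pgr difference was called (adjusted p = 1.5e-05). Ghr, the growth hormone receptor, was 1.88-fold higher in GFP+ cells, just missing the threshold without mouse 3 (adjusted p = 0.010). The lower genes were Oxtr, the oxytocin receptor (log2 fold change -4.40, SE 0.66), Nr3c2 (-1.72, SE 0.20), Igf1r (-0.74, SE 0.13) and Gper1, which had no count in GFP+ and 2.47, 3.17 and 1.67 CPM in tdTomato+ cells (at least 47.6-fold lower). Prlr (2.02), Nr3c1 (0.03) and Insr (-0.44) were not called.

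Growth factors were called higher in 20 of 45 cases and lower in 9. Fgf10, a fibroblast growth factor that acts on epithelium, had 35.3, 73.4 and 46.0 CPM in GFP+ and 0.747, 3.30 and 2.72 CPM in tdTomato+ cells (log2 fold change 4.61, SE 0.63, adjusted p = 0.00091), and was just short of the threshold without mouse 2 (0.011). Vegfd, which acts on lymphatic vessels, had 93.0, 101 and 107 CPM against 2.38, 3.53 and 6.22 CPM, and Mdk, the heparin-binding factor midkine, had 27.0, 26.0 and 24.9 CPM against 1.17, 0 and 0.167 CPM. In tdTomato+ cells the ligand Pdgfa stood out, with 109, 75.1 and 75.0 CPM against 1.90, 1.42 and 2.66 CPM in GFP+ cells (-5.42, SE 0.25, adjusted p = 9.1e-09). The ligand was thus high where the level of its receptor gene Pdgfra was low. Igf2 (-4.35, SE 0.31) and Il6 were also lower in GFP+ cells, Il6 with 110.5, 81.1 and 113.9 CPM against 1377, 1438 and 1242 CPM. Leaving out mouse 2 took the called growth factors to 12 higher and 5 lower. Their receptors were called higher in 9 of 35 cases and lower in 9, which is 51.4% against 26.7% over all genes tested. Egfr had 1611, 1425 and 1441 CPM in GFP+ and 137.5, 110.6 and 137.2 CPM in tdTomato+ cells (3.54, SE 0.16, adjusted p = 7.4e-09), and Ror2, a receptor of Wnt5a, was 7.52-fold higher. The lower receptors included Fgfr4 of satellite cells (0.293, 0.047 and 0 against 139, 66.4 and 100 CPM) and the vessel receptors Flt1 (6.88, 5.31 and 4.84 against 188, 154 and 140 CPM) and Flt4 (0, 0.237 and 0.089 against 7.88, 28.8 and 26.5 CPM).

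Of 40 Wnt pathway genes tested, 14 were called higher and 5 lower, and 14 further genes of the list were too low to test. The called share was 47.5%, against 26.7% over all genes tested. Besides Wnt2, the higher genes were led by Sfrp1, a secreted Wnt binder, with 162, 169 and 123 CPM in GFP+ and 1.21, 2.68 and 2.83 CPM in tdTomato+ cells (log2 fold change 6.11, SE 0.56, adjusted p = 0.00011), and by Wnt5a, with 27.3, 38.9 and 35.8 CPM against 2.57, 1.38 and 3.22 CPM (3.86, SE 0.54). Lgr5, an R-spondin receptor (chromosome 10, 115450311 to 115587780), was lower in GFP+ cells, with 0.439, 0.190 and 0.976 CPM against 30.4, 22.1 and 35.2 CPM (-5.82, SE 0.76). Wnt4, a ligand that luminal epithelium makes under progesterone, had 0.805, 0.047 and 0.843 CPM against 12.7, 12.4 and 7.33 CPM (adjusted p = 0.0057, and 0.013 to 0.034 with a treated mouse left out). Lgr4 (-0.89), Fzd4 (-0.73) and Tcf7 (-2.10) were the other lower genes. Lgr4 was not called with any 1 treated mouse left out (adjusted p = 0.012 to 0.047), Fzd4 not without mouse 1 or 2 (0.020 and 0.015) and Tcf7 not without mouse 2 or 3 (0.019 and 0.018). With mouse 1, 2 or 3 left out, 2, 1 or 2 Wnt genes were called lower, and 7 were called higher without mouse 1.

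TGFβ and BMP pathway genes were called higher in 12 of 47 cases and lower in 10, which is 46.8% against 26.7% over all genes tested. The BMP pathway differed at both ends: the ligand Bmp7 was higher in GFP+ cells, as given above, and Bmp2 was lower, with 13.0, 24.3 and 25.4 CPM against 48.3, 158 and 148 CPM (log2 fold change -2.39, SE 0.21, adjusted p = 1.7e-06). Each subset had antagonists of its own. Fst, the activin and BMP binder follistatin, had 185, 170 and 181 CPM in GFP+ and 4.11, 3.35 and 7.11 CPM in tdTomato+ cells (5.26, SE 0.66), though not called without mouse 1 (adjusted p = 0.013) or mouse 2 (0.011). Chrdl2, a chordin-like antagonist, had 0.146, 0.047 and 0.089 CPM against 123, 108 and 133 CPM (-10.31, SE 0.55, adjusted p = 4.6e-07). Id4, an inhibitor of DNA binding that BMP signals induce, was 16.8-fold lower in GFP+ cells.

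Notch pathway genes were mostly lower in GFP+ cells, with 9 of 17 called lower, 2 higher and a median log2 fold change of -1.83. Notch3, the receptor of vascular smooth muscle and pericytes, had 10.5, 6.92 and 8.92 CPM in GFP+ and 952, 778 and 794 CPM in tdTomato+ cells (log2 fold change -6.59, SE 0.23, adjusted p = 1.5e-09). The Notch targets Nrarp (0.366, 0.237 and 0.488 against 64.1, 40.5 and 44.7 CPM) and Hey2 (0.512, 0.379 and 0.444 against 17.5, 9.42 and 15.7 CPM) followed the same direction. Notch2 was 1.90-fold higher in GFP+ cells (adjusted p = 9.4e-05). The glycosyltransferase Lfng had 5.34, 15.5 and 7.32 CPM against 3.13, 0.313 and 0.500 CPM, but was not called without mouse 2 (0.040), mouse 3 (0.060) or untreated mouse 1, 3 or 4, which leaves Notch2 as the higher gene.

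Retinoid genes were called higher in 10 of 19 cases and lower in 2. Crabp1, a carrier of retinoic acid, had 32.5, 23.4 and 14.9 CPM in GFP+ and 0.093, 0 and 0.666 CPM in tdTomato+ cells (log2 fold change 6.68, SE 0.95, adjusted p = 0.0006), and Stra6, which takes up retinol, had 26.4, 24.7 and 19.0 CPM against 0.560, 1.92 and 1.28 CPM. The lower genes were Rdh10, which oxidizes retinol (-0.87), and the receptor Rarb (-1.77). Both missed the threshold without mouse 2 (adjusted p = 0.031 and 0.012), Rarb also without mouse 1 (0.011), and Rdh10 without the block (0.050). Complement genes were called higher in 6 of 18 cases and lower in none, among them the classical protease C1ra (521, 521 and 524 against 52.7, 45.5 and 62.0 CPM) and the terminal component C7 (46.3, 19.0 and 52.3 against 1.82, 1.96 and 2.89 CPM). Over all genes tested 26.7% were called, against 33.3% of these complement genes.

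Chemokines and their receptors were called higher in 7 of 28 cases and lower in 3, which is 35.7% against 26.7% over all genes tested. Cxcl14 had 121, 89.3 and 72.7 CPM in GFP+ and 3.87, 4.51 and 5.83 CPM in tdTomato+ cells (log2 fold change 4.30, SE 0.38, adjusted p = 1.4e-05), and the membrane-bound chemokines Cxcl16 (2.90, SE 0.35) and Cx3cl1 (2.87, SE 0.43) were higher as well. The lower genes were Ccl20, Cxcr4 and Cxcl1, and up to 7 over the alternatives. Ccl20 had no count in GFP+ cells and 5.97, 42.5 and 15.9 CPM in tdTomato+ cells, at least 423-fold lower, although the Wald test of DESeq2 did not call it (adjusted p = 0.032). Cxcr4, the receptor of Cxcl12, had 2.27, 4.12 and 1.86 CPM against 36.2, 32.3 and 30.2 CPM, and Cxcl1 had 505, 387 and 582 CPM against 1459, 1167 and 1401 CPM. Guidance genes were called higher in 18 of 60 cases and lower in 14, a share of 53.3%. Epha2 had 1.32, 0.521 and 0.976 CPM in GFP+ and 67.3, 67.7 and 77.4 CPM in tdTomato+ cells (-6.30, SE 0.27, adjusted p = 4.7e-09), whereas the ephrin ligand Efna5 had 16.0, 16.6 and 17.1 CPM against 2.01, 0.625 and 1.00 CPM (3.87, SE 0.37). Sema5b (-7.02, SE 0.52) and the semaphorin receptor Plxnb1 (-5.38, SE 0.41) were lower in GFP+ cells.

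Lysosomal genes formed the most one-sided of the metabolic lists, with 39 of 47 called higher in GFP+ cells and 3 lower, at modest size (median log2 fold change 1.65). Ctsk, the collagen-degrading cathepsin K, had 236, 186 and 241 CPM in GFP+ and 13.6, 12.3 and 17.8 CPM in tdTomato+ cells (log2 fold change 3.93, SE 0.28, adjusted p = 1.6e-06). Ctsh had 121, 105 and 108 CPM against 4.29, 9.46 and 8.27 CPM, and the sulfatase Arsb had 139, 135 and 115 CPM against 13.0, 15.2 and 17.3 CPM. The lower genes were Gla (log2 fold change -1.41, SE 0.21), Ctsc (-0.89, SE 0.24) and Ctss (-4.51, SE 1.01), a cathepsin of macrophages. Leaving out mouse 2 or mouse 3 left 1 lower gene, since Ctsc (adjusted p = 0.13 and 0.013) and Ctss (0.037 and 0.035) were lost. Cd68, Idua, Neu1, Scarb2 and Acp5 were not called.

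Proliferation genes were called lower in GFP+ cells in 8 of 28 cases and higher in none. The share called, 28.6%, was near the 26.7% over all genes tested, of which 13.1% were called lower. Mki67, present in cycling cells, had 8.20, 6.87 and 3.28 CPM in GFP+ and 93.4, 45.2 and 51.4 CPM in tdTomato+ cells (log2 fold change -3.39, SE 0.27, adjusted p = 5.6e-07), and the G1 cyclin Ccnd1 had 3.15, 1.04 and 1.86 CPM against 33.5, 39.5 and 37.6 CPM (-4.29, SE 0.38). Without mouse 1 or mouse 2, 4 or 5 genes were called, and 13 were called by DESeq2, 13 by voom and 14 at an adjusted p of 0.05. Immediate early genes, which tissue dissociation can switch on, were called lower in 13 of 27 cases and higher in 3. Their summed level was high in both subsets, 11970, 13990 and 14350 CPM in GFP+ and 22440, 20400 and 20310 CPM in tdTomato+ cells. Fosl2 had 290, 315 and 306 CPM against 1363, 1710 and 1595 CPM (-2.35, SE 0.13), and Nr4a3 had 187, 182 and 132 CPM against 1054, 1226 and 1092 CPM. Egr2 (1.83, SE 0.19), Klf4 (1.11, SE 0.19) and Dusp1 (0.77, SE 0.15) were higher in GFP+ cells, Dusp1 not without mouse 2 or 3 (adjusted p = 0.021 and 0.019). Leaving out mouse 1 or mouse 2 left 7 lower genes. The part of dissociation in these levels was not tested.

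Genes of pericytes and smooth muscle set the tdTomato+ stroma apart, with 17 of 20 called lower in GFP+ cells and a median log2 fold change of -5.29. Their summed level was 2006, 1692 and 1724 CPM in GFP+ and 11050, 10120 and 10140 CPM in tdTomato+ cells, with little spread between mice. Rgs5, a pericyte regulator of G protein signals (chromosome 1, 169655501 to 169695813), had 14.6, 7.72 and 7.99 CPM in GFP+ and 2168, 2141 and 1932 CPM in tdTomato+ cells (log2 fold change -7.75, SE 0.27, adjusted p = 1.7e-09). Myh11, the myosin heavy chain of smooth muscle, had 25.3, 16.9 and 20.9 CPM against 1947, 1511 and 1885 CPM (-6.41, SE 0.25). Acta2, smooth muscle actin, had 8.34, 6.87 and 5.90 CPM against 452, 331 and 481 CPM, and the actin binder Tagln had 7.54, 5.02 and 4.53 CPM against 266, 217 and 234 CPM. Pdgfrb and Cald1 (-0.21) were not called, and Smtn was higher in GFP+ cells at 1.96-fold, but not with any 1 treated mouse left out (adjusted p = 0.018 to 0.057) or without untreated mouse 3. Procr (chromosome 2, 155751117 to 155755471), which encodes the protein C receptor of endothelium and vessel-associated cells, had 38.9, 27.1 and 45.0 CPM in GFP+ and 1202, 992 and 897 CPM in tdTomato+ cells (-4.82, SE 0.22, adjusted p = 1.1e-08).

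**Figure D4:**
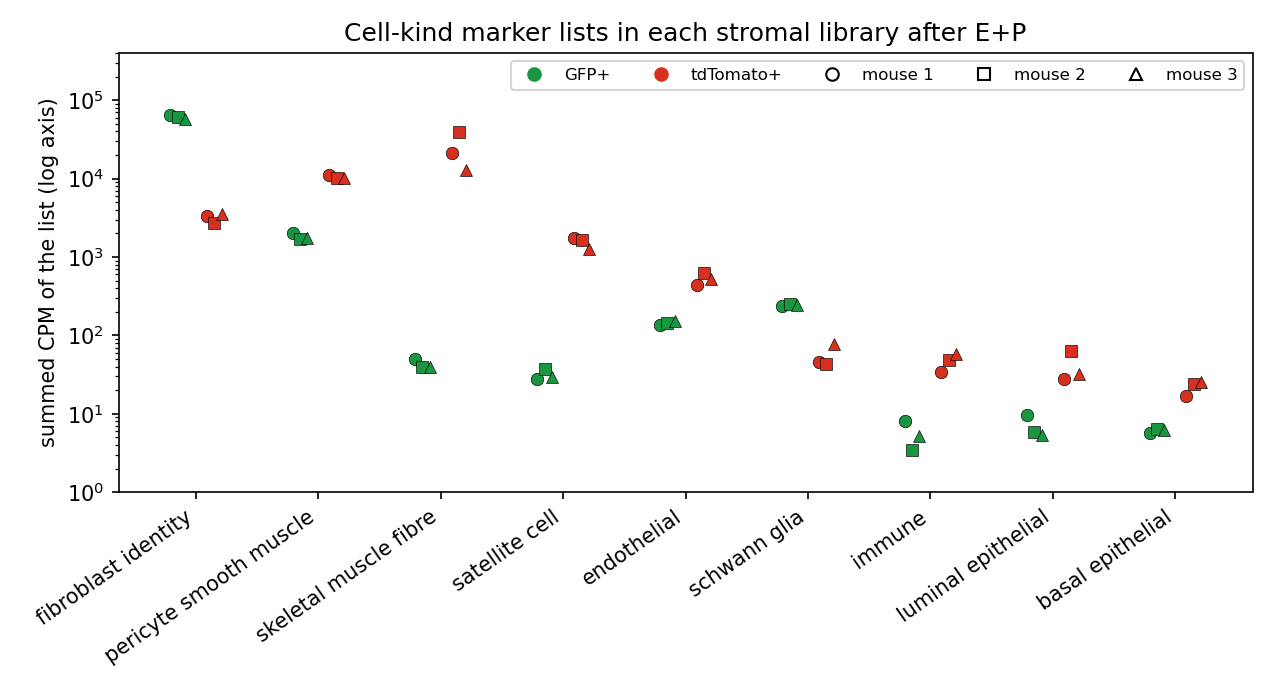
Summed CPM (log axis) of 9 lists of cell-kind markers in the GFP+ (green) and tdTomato+ (red) stromal libraries, with 1 symbol per E+P-treated mouse. Fibroblast and Schwann cell lists are higher in GFP+ cells and the others in tdTomato+ cells, and muscle fibre markers spread from 12710 to 39760 CPM among tdTomato+ libraries.

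All 20 skeletal muscle fibre genes were called lower in GFP+ cells (median log2 fold change -10.6, the same with genes at 0 set to their bound). The list summed to 49.6, 39.7 and 39.5 CPM in GFP+ and 20930, 39760 and 12710 CPM in tdTomato+ cells, so that the tdTomato+ library of mouse 2 held the most and that of mouse 3 the least. Acta1, skeletal actin (chromosome 8, 123891769 to 123894751), had 1.17, 0.047 and 0.178 CPM against 4029, 7456 and 2376 CPM (log2 fold change -13.46, SE 0.89, adjusted p = 2.8e-05) and stood first per kilobase of exon in tdTomato+ cells (3010 CPM per kb). Ckm, muscle creatine kinase, had 3 counts in GFP+ libraries and 1108, 1929 and 554 CPM in tdTomato+ libraries (ratio 23800, 95% counting interval 8130 to 115000). Pvalb, a calcium buffer of fast fibres, had no count in GFP+ cells and 257, 441 and 127 CPM in tdTomato+ cells, at least 5460-fold lower. The 10 genes with the largest fitted differences in this direction were all of skeletal muscle, Pax7 of its satellite cells and the others of fibres, and comprised Pvalb, Ckm, Pgam2, Pax7, Klhl31, Xirp2, Acta1, Tnnc2, Tnni2 and Mypn. Skeletal muscle is no part of the gland, and where these reads came from was not tested.

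Of 16 genes of satellite cells, the stem cells of skeletal muscle, 15 were called lower in GFP+ cells (Msc, at -0.22, was not called). Pax7, their defining factor (chromosome 4, 139737062 to 139833528), had no count in any GFP+ library and 171, 87.8 and 106 CPM in tdTomato+ cells, at least 2330-fold lower. Myf5, an early myogenic factor, had 3 counts in GFP+ libraries and 96.5, 52.1 and 88.9 CPM in tdTomato+ libraries (ratio 1490, interval 511 to 7250). Myod1 had no count against 11.7, 26.7 and 30.4 CPM. The summed level was 27.7, 37.1 and 29.7 CPM against 1744, 1664 and 1255 CPM, a narrower spread in tdTomato+ cells than that of the fibre genes. The contributions of muscle and of satellite cells to the genes lower in GFP+ cells, such as Fgfr4, Itga7, Cdh15 and the actinins, were not tested.

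Most genes of the pericyte and fibre lists were lower in GFP+ cells, and promoters of a few are shown as reference sequence: the skeletal and smooth muscle actins Acta1 and Acta2, the fast fibre genes Myh4 and Pvalb, and Myl9, a light chain of smooth muscle myosin. Sequences are from RefSeq on GRCm38.p6, which gave promoters for 13 of the 18 called genes of the pericyte list and for 15 of the 20 fibre genes. Of these 18 genes, 17 were called lower in GFP+ cells and Smtn was called higher, and not all of them are contractile genes. Each line gives the 200 bases before the annotated start, 5′ to 3′ on the gene's strand, and capitals mark a CArG box (the site of serum response factor), an E-box of the form CAGCTG or a MEF2 site. Only exact matches are marked, for CArG boxes to CCWWWWWWGG and for MEF2 sites to YTAWWWWTAR (W is A or T, Y is C or T, R is A or G). Near matches stay in lower case, so an unmarked stretch may still hold a CArG-like site. In the Acta2 stretch, ccctatatgg and ccttgtttgg are such near matches. Pvalb has a second start in RefSeq, and the 200 bases before it, which are not printed, hold none of these motifs.
Acta1, chr8:123894776-123894975, minus strand: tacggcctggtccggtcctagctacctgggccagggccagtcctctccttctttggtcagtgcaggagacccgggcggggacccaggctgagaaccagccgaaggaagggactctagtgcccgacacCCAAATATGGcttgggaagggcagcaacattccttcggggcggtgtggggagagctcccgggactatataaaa
Myh4, chr11:67237612-67237811, plus strand: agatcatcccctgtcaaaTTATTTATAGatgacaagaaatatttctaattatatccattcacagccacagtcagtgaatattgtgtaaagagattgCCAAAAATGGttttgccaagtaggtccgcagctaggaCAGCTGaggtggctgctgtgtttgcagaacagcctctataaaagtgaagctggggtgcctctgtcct
Pvalb (1 of its 2 starts), chr15:78206401-78206600, minus strand: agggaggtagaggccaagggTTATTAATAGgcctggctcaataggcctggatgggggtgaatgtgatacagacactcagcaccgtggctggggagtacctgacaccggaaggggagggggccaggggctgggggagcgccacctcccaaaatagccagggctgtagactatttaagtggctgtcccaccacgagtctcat
Acta2, chr19:34255374-34255573, minus strand: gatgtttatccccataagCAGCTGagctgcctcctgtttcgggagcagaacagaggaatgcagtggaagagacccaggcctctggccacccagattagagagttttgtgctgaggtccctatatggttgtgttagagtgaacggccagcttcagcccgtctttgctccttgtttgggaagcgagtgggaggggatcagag
Myl9, chr2:156775264-156775463, plus strand: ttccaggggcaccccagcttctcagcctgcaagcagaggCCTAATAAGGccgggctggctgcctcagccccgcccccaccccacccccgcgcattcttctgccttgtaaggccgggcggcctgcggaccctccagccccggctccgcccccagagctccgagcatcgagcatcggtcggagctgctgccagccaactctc

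The 3 motifs read the same on both strands, and none of the matches overlapped another. Over the full window of 250 bases before to 50 bases after the start, CAGCTG was in 10 of 18 promoters of called fibre genes (55.6%), in 4 of 13 promoters of called pericyte and smooth muscle genes (30.8%) and in 16.3% of all 32851 promoters. MEF2 sites were in 4 (22.2%) and 2 (15.4%) of these promoters and in 3.19% of all, and CArG boxes in 2 (11.1%) and 1 (7.69%) and in 1.63% of all. Myh4, the fastest myosin heavy chain, held all 3 motifs. These matches are a description of letters in these windows, and promoters with several starts per gene are counted separately. Near matches, such as those of Acta2, are not in these counts.

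Endothelial genes, which the gate against CD31 should remove, were called lower in GFP+ cells in 11 of 16 cases and summed to 136, 143 and 151 CPM in GFP+ and 434, 620 and 530 CPM in tdTomato+ cells. Cdh5 and Pecam1 were below 1.5 CPM in all GFP+ libraries, whereas Pecam1 had 17.1, 48.4 and 39.0 CPM in tdTomato+ cells and Cldn5 had no count in GFP+ cells. Lyve1, of lymphatic endothelium and some macrophages, had 0.293, 0.047 and 0 CPM against 27.5, 85.1 and 38.8 CPM (log2 fold change -9.00, SE 0.73). Kdr was present in both subsets (48.4, 42.1 and 50.8 against 17.8, 56.9 and 64.7 CPM), and Tek was higher in GFP+ cells (73.5, 82.0 and 87.9 against 14.1, 14.7 and 15.4 CPM), though not called with any 1 treated mouse left out (adjusted p = 0.015 to 0.018). Immune genes summed to 7.98, 3.46 and 5.19 CPM in GFP+ and 34.2, 48.9 and 57.5 CPM in tdTomato+ cells, with Ptprc (CD45) at most 0.293 CPM in GFP+ and 11.9 CPM in tdTomato+ cells. Of the 11 immune genes tested, 6 were called lower, and 2 or 3 without mouse 2 or mouse 3. Luminal epithelial genes summed to 9.51, 5.88 and 5.37 CPM against 27.8, 62.3 and 32.6 CPM, with Krt8 at 0.951, 0.947 and 0.089 CPM against 2.99, 11.7 and 1.33 CPM, and the milk protein gene Csn2 had no count in any of the 6 libraries. The same list took 7034 to 8545 CPM in the luminal libraries of these mice, scaled over all 28 libraries. Basal epithelial genes summed to 5.71, 6.40 and 6.12 CPM in GFP+ and 17.03, 23.9 and 25.7 CPM in tdTomato+ cells, with Krt5 and Krt14 at most 1.74 CPM in any of the 6 libraries. Of 13 luminal genes tested Kit and Krt18 were called lower, and of 6 basal genes Trp63, but neither Krt18 nor Trp63 was called with any 1 treated mouse left out. These shares, 15.4% and 16.7%, were below the 26.7% over all genes tested. Schwann cell markers summed to 235, 253 and 242 CPM in GFP+ and 45.5, 43.7 and 77.9 CPM in tdTomato+ cells, but Ngfr made up most of this, while Sox10 was at 1 count in GFP+ and 2.29, 1.38 and 1.89 CPM in tdTomato+ cells, a call lost with any 1 treated mouse left out (adjusted p = 0.016 to 0.024). The part of each of these cell kinds in the differences above was not tested.

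Whether the GFP+ to tdTomato+ difference itself depended on E+P was tested as the difference after treatment minus that in the 4 untreated mice. Of 17783 genes, 13 passed (0.0731%), with 12 moving towards GFP+ cells after E+P and 1 towards tdTomato+ cells, and 1821 had an unadjusted p under 0.05. The count depended on single mice: it was 8, 2 or 11 without mouse 1, 2 or 3, and 5, 20, 10 or 24 without untreated mouse 1, 2, 3 or 4. Without the mouse as a block 8 genes passed, 5 of them among the 13. Nrk was called under each of the alternatives tried.

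In Nrk, Heph, Spon1 and Ano4 (values below) the level in GFP+ cells was already higher on average than in tdTomato+ cells of untreated mice, and after E+P it lay above that of every untreated GFP+ library. Nrk, a kinase of the germinal centre family (chromosome X, 138914430 to 139010532), had 78.9, 51.0 and 69.5 CPM in GFP+ and 1.73, 1.12 and 1.39 CPM in tdTomato+ cells after E+P. In untreated mice it had 9.36, 6.79, 6.23 and 3.10 CPM in GFP+ and 4.79, 2.55, 4.04 and 3.77 CPM in tdTomato+ cells. The difference between these log2 differences was 4.85 (SE 0.38, adjusted p = 0.00017). Heph, an iron oxidase, had 320, 323 and 290 CPM against 7.84, 13.4 and 11.7 CPM after E+P, and 34.3, 39.3, 41.3 and 32.6 CPM against 7.44, 7.80, 11.8 and 4.31 CPM in untreated mice (2.57, SE 0.27, adjusted p = 0.0017). Spon1, a secreted matrix protein, had 1303, 975 and 1026 CPM against 109.5, 123.5 and 104.3 CPM after E+P, and 220, 285, 363 and 327 CPM against 76.4, 91.5, 119 and 74.5 CPM in untreated mice (1.56, SE 0.21, adjusted p = 0.0066). Heph was not called without mouse 2 or untreated mouse 1, and Spon1 without any 1 of the treated mice, without untreated mouse 1, 2 or 3 or without the block.

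Other genes were lower in GFP+ than in tdTomato+ cells of untreated mice and came closer or crossed after E+P. Ngfr, the low-affinity neurotrophin receptor, had 4.04, 6.72, 10.8 and 2.29 CPM in GFP+ and 8.21, 16.7, 11.5 and 8.17 CPM in tdTomato+ cells of untreated mice, and 206, 221 and 210 CPM against 33.1, 30.4 and 48.9 CPM after E+P (difference 3.53, SE 0.35, adjusted p = 0.0024). It thus rose above tdTomato+ cells. Tenm4, a teneurin of cell adhesion, had 2.22, 2.42, 1.93 and 0.490 CPM against 66.5, 55.8, 49.4 and 54.8 CPM in untreated mice, and 29.8, 18.4 and 36.2 CPM against 87.9, 48.3 and 51.3 CPM after E+P (3.87, SE 0.43, adjusted p = 0.0044). Its tdTomato+ ranges of treated and untreated mice overlapped, and GFP+ cells stayed below them (log2 fold change after E+P -1.15, adjusted p = 0.0095, but 0.085 and 0.072 without mouse 1 and mouse 2). Grk3, a kinase of G protein-coupled receptors, had 0.808, 3.05, 2.21 and 0.898 CPM against 17.9, 32.2, 33.4 and 17.7 CPM in untreated mice, and 13.3, 18.4 and 15.3 CPM against 39.7, 39.2 and 27.7 CPM after E+P (2.78, SE 0.32). Ncam1, the neural cell adhesion molecule, had 5.18, 9.42, 10.7 and 5.47 CPM against 106, 128, 105 and 75.6 CPM in untreated mice, and 36.5, 26.0 and 40.8 CPM against 157, 113 and 139 CPM after E+P (1.79, SE 0.24). Each of these 4 genes missed the threshold in at least 2 of the fits with a mouse left out, and Ngfr, Grk3 and Ncam1 also without the block (adjusted p = 0.039, 0.043 and 0.048).

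In Col15a1, Col1a1, Mgp and Ano4, and also in Nrk, the tdTomato+ level after E+P lay below that of every untreated tdTomato+ library. The same was seen in Serpinf1, Col14a1, Pi16 and Wnt2, whose interaction was not called. Their mean tdTomato+ levels were 16.03, 16.1, 2.573 and 0 CPM after E+P, and 64.95, 100.7, 65.44 and 3.786 CPM in untreated mice. For Pdgfra, Cd34, Ly6a, Dcn, Lum and Dpp4 the tdTomato+ ranges overlapped, with lower means after E+P. Whether tdTomato+ stroma held less RNA of fibroblasts and progenitors after E+P was not tested. In Nrk and Ano4 the GFP+ level after E+P also lay above that of every untreated GFP+ library. Changes within a subset were not tested, and Ano4 had only 3 counts over the tdTomato+ libraries after E+P. Col15a1 had 980, 720, 1197 and 672 CPM in GFP+ and 88.1 to 170 CPM in tdTomato+ cells of untreated mice, set against the values after E+P given above (difference 2.39, SE 0.24, adjusted p = 0.001). Col1a1 had 8288, 4865, 12030 and 6978 CPM against 987, 446, 1251 and 651 CPM in untreated mice, so that its tdTomato+ level after E+P lay below that of each untreated mouse while the GFP+ ranges overlapped (1.52, SE 0.20, adjusted p = 0.0066). Col1a1 was called in 1 of the 7 fits with a mouse left out and not without the block (adjusted p = 0.24), and Col15a1 in all but that without mouse 2 (adjusted p = 0.012). Mgp, matrix Gla protein, had 50.2, 35.5, 77.1 and 103 CPM against 37.5, 28.2, 76.0 and 71.1 CPM in untreated mice, and 133, 59.4 and 71.4 CPM against 21.4, 13.6 and 12.4 CPM after E+P (2.10, SE 0.20, adjusted p = 0.001). Neither Mgp nor Ptn was called without the block (adjusted p = 0.25 and 0.48). Ptn, the growth factor pleiotrophin, had 32.5, 28.6, 62.5 and 4.74 CPM against 44.9, 99.0, 144 and 6.91 CPM in untreated mice, and 14.8, 20.2 and 18.3 CPM against 3.87, 7.81 and 6.89 CPM after E+P (2.60, SE 0.32), and was not called with any 1 treated mouse left out (adjusted p = 0.017 to 0.024) or without untreated mouse 3 (0.024). Ano4, a calcium-activated membrane protein (chromosome 10, 88948994 to 89344762), had 9.44, 10.9 and 11.5 CPM against 3 counts over the tdTomato+ libraries after E+P, a ratio of 223 (95% counting interval 75.8 to 1080), and 1.75, 0.900, 3.03 and 1.80 CPM against 0.684, 0.493, 0.833 and 1.26 CPM in untreated mice. Its interaction was not called with any 1 treated mouse left out (adjusted p = 0.014 to 0.026), without untreated mouse 1 (0.011) or in voom (0.017). Pdk4, which turns muscle and other cells from glucose to fat as fuel, was the 1 gene that moved towards tdTomato+ cells: it had 35.01, 25.6, 26.2 and 26.5 CPM against 137, 74.5, 95.8 and 70.9 CPM in untreated mice, and 7.39, 13.2 and 8.96 CPM against 134, 175 and 88.2 CPM after E+P (-2.02, SE 0.23, adjusted p = 0.0024). It was not called without mouse 1 (0.011) or mouse 2 (0.023), nor without the block (0.044).

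**Figure D5:**
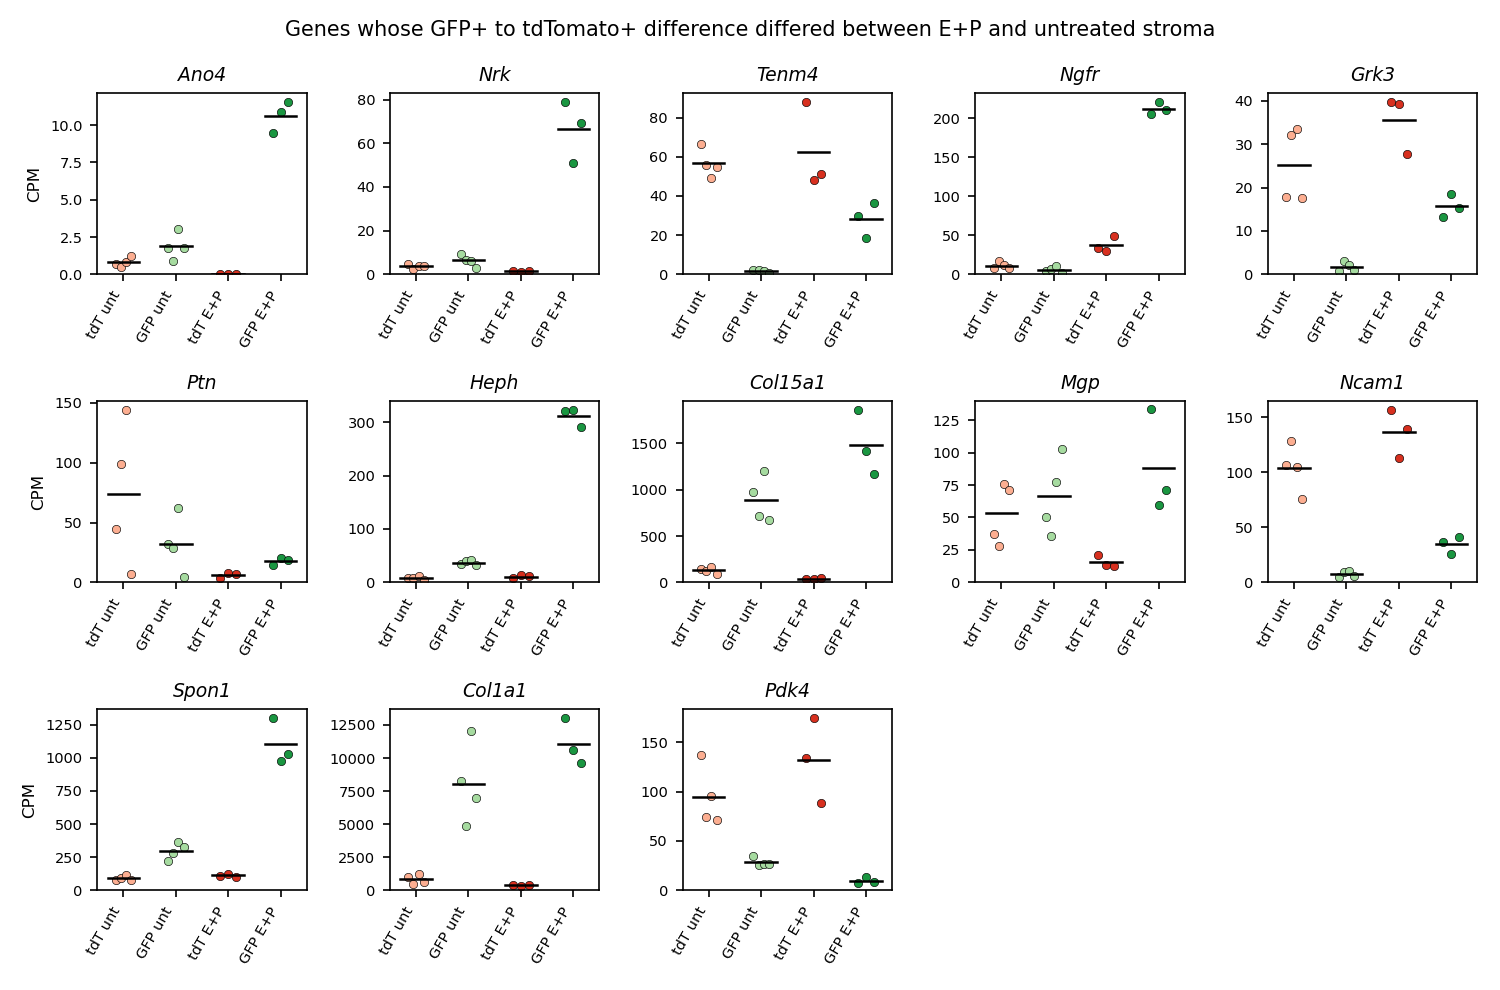
Level in CPM (y axes, each from 0) of the 13 genes whose GFP+ to tdTomato+ difference differed between E+P-treated and untreated stroma, with 1 point per library and bars at the mean. From left to right each panel gives tdTomato+ and GFP+ cells of 4 untreated mice and tdTomato+ and GFP+ cells of 3 E+P-treated mice. GFP+ cells after E+P stand highest in Ano4, Nrk, Ngfr, Heph and Spon1, and tdTomato+ cells after E+P lie lowest in Col15a1, Mgp, Col1a1, Nrk and Ano4.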

How the data were processed

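The authors aligned reads of each library with STAR 2.5.2a (GRCm38.p5, from the submitters' processing notes) and deposited raw counts of reads per gene, with neither normalization nor molecular identifiers, for 28 libraries. Libraries came from a stranded low-input total RNA kit, and per the labels RNA integrity varied widely. Groups and mouse numbers came from the sample titles. Of 50600 gene IDs, 50376 were found in GENCODE M21, which gave symbols and coordinates.

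Counts of all 14 stromal libraries were fitted in edgeR 4.0.16 (R 4.3.3) with TMM factors, filterByExpr and robust quasi-likelihood dispersions, with terms for mouse, subset and subset by treatment. The study's methods name no block; it was used because GFP+ and tdTomato+ libraries with the same number are from the same animal. Their deviations from group means correlated at 0.0316, 0.0181 and 0.0425 within the 3 treated mice and at -0.0581 to 0.0199 between mice. P values were two-sided and adjusted after Benjamini and Hochberg across every tested gene, and called under 0.01. A standard error is the absolute log2 fold change over the square root of F. Exact sign flips over 3 mice give no p under 0.25 and were not used. The fits were also run on simulated counts with 200 genes changed, no effect of mouse and all other genes level between groups. That setting is unlike these data, so nothing is concluded from it. Alternatives were DESeq2 1.42.0 and voom of limma 3.58.1, other scalings, no filter on low counts, other blocks and samples, and each mouse left out.

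Named genes are the 10 in each direction with the largest called difference (at least 10 CPM on average in the higher group, same side in 3 of 3 mice), up to 3 called genes per list and direction, 12 fixed genes, up to 5 called genes per direction of the interaction, and the first 3 markers of cell lists; a few more were named after their values were seen. The members and the 34 lists were chosen with earlier results of these data known. Genes that share reads with near-identical copies may be split by the counting. Results of some genes are not reported here.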

Additional observations from a re-analysis of the deposited data

Results flagged for a closer look

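The GFP+ to tdTomato+ difference differed between E+P-treated and untreated stroma in 13 genes by the interaction term of edgeR's quasi-likelihood test, called at an adjusted p of 0.01. In log2 units, after E+P minus untreated, the differences were 6.39 for Ano4, 4.85 for Nrk, 3.87 for Tenm4, 3.53 for Ngfr, 2.78 for Grk3 and 2.60 for Ptn. They were 2.57 for Heph, 2.39 for Col15a1, 2.10 for Mgp, 1.79 for Ncam1, 1.56 for Spon1 and 1.52 for Col1a1. The difference was -2.02 for Pdk4. Nrk and Mgp passed with each of the 7 mice left out in turn, and the other 11 genes did not pass in at least 1 of these fits. The groups of 3 libraries are too small to look for single values that stand apart.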

How the results depend on the processing

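The count of genes that differed between GFP+ and tdTomato+ stroma stayed within 1.5 times 4747 under each other test, scaling, filter and threshold and with all 3 treated mice kept; without the replicate block it was 4988, of which 4505 were shared. Leaving out 1 of the 7 mice gave 3132 to 4857 genes, 1620 to 2453 of them higher and 1512 to 2404 lower. The 13 genes of the interaction became 8 without the block (0 lower), 181 in the Wald test of DESeq2 (57 lower), 29 in voom (27 and 2), 500 with no filter on low counts (342 and 158) and 69 at an adjusted p of 0.05 (51 and 18). Leaving out a mouse gave 2 to 24 genes, 2 to 18 higher and 0 to 8 lower. The cause of these changes was not tested.

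Direction changed in 9 of 212 named genes, none of them called. With DESeq2 size factors, library size only and the Wald test, the log2 fold change of Pdgfrb was -0.027, -0.032 and -0.027, of Prrx1 -0.026, -0.032 and -0.026, and of Nr3c1 -0.018, -0.023 and -0.018. Twist2 had 0.0068 in voom and 0.0092 with no filter. Without the block Cd55 had -0.077 (-0.083 in the 6 libraries alone). With a mouse left out, the ranges were -0.029 to 0.069 for Pdgfrb, -0.12 to 0.14 for Prrx1, -0.31 to 0.22 for Twist2, -0.53 to 0.60 for Cd55 and -0.11 to 0.38 for Limch1. They were -0.54 to 0.0016 for Msc, -0.015 to 0.20 for Scarb2 and -0.38 to 0.54 for Kdr. Without the block 8 named genes lost their call and 2 gained one; TMM without muscle fibre genes changed no named call. A group with no count sets only a bound, and 18787 gene IDs had no count in the 6 libraries.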
